A study of Rattus norvegicus with 12 samples.

Results

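Most of the genes described here encode subunits of oxidative phosphorylation, the chain of enzyme complexes in the inner mitochondrial membrane that makes most of a neuron's ATP. They were chosen by symbol alone: a probe set belonged if its single annotated symbol began with Nduf, Uqcr, Sdh, Atp5 or Cox followed by a digit from 4 to 8, or was Cyc1, Cycs or Cox17. The rule took 103 probe sets of 92 genes, out of 31042 probe sets and 14217 genes named by a single symbol. Each gene was represented by its probe set with the highest mean log2 signal over the 12 arrays. The rule itself uses no expression difference, but the set was chosen with earlier results of these data known. Complex I held 40 of the genes, complex II 8, complex III 8, complex IV 19 and complex V 16, and the remaining 1 was the pseudogene Cox6c-ps1. These counts include assembly factors, which are not subunits: 6 in complex I, 4 in complex II and 1 in complex IV. They also include 1 supercomplex factor in complex IV and 1 inhibitor in complex V. Cycs, the soluble electron carrier cytochrome c, was not analysed here.

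Complex I takes electrons from NADH and complex II takes them from succinate, and both pass them to ubiquinone. Complex III moves them on to cytochrome c, and complex IV hands them to oxygen. Complexes I, III and IV pump protons, and complex V, the ATP synthase, lets the protons back and makes ATP. Most subunits are encoded in the nucleus and are the ones measured here, while a small set is encoded by mitochondrial DNA. Retinal ganglion cells (RGCs), whose axons form the optic nerve, are known for their sensitivity to defects of this chain: mitochondrial mutations in complex I cause Leber hereditary optic neuropathy, in which these neurons are lost.

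The series asked how primary rat RGCs respond to the endothelins, peptides that act through the endothelin A and B receptors. All groups were RGCs of Sprague-Dawley pups of postnatal days 4 to 6, taken by panning on an antibody to the surface protein Thy-1.1. All groups spent 7 days in serum-free DMEM with 50 ng/mL BDNF, 10 ng/mL CNTF and 5 ng/mL forskolin, and then a night without neurotrophic factors. The groups were untreated cells (vehicle-treated in the sample descriptions) and cells given ET-1, ET-2 or ET-3 at 100 nM and harvested after 24 h, with 3 Affymetrix Rat Genome 230 2.0 arrays each. The labels number the arrays of every group 1 to 3 as biological replicates without saying what a number stands for, so p-values describe these arrays only. In the fit with replicate number as a block, they measure the spread left after the differences between numbers are taken out. The cells are a neonatal, neurotrophin-deprived culture, which limits them as a model of adult RGCs.

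Values are MAS5 signals on a linear scale, in which 1 number summarises the probes of a probe set. Array medians ran from 136 to 181 and trimmed means from 496.7 to 498.3, so the arrays share a trimmed mean but not a median. The RGC label was checked against 13 RGC markers, all above the filter for testing (a mean log2 signal of 7.2, or a signal of 147). Their summed signal ran from 91689 to 96209 in the arrays numbered 1, from 110071 to 121892 in those numbered 2 and from 133369 to 147622 in those numbered 3. Fibroblast markers (8 genes) summed to between 51476 and 57417 in the arrays numbered 1, and to between 7299 and 13145 in the others. The 5 named photoreceptor markers were all below the filter. Within a replicate number the 4 groups were close in both lists, and they differed in others. Markers of pericytes and smooth muscle summed to between 4032 and 6842 untreated and between 7482 and 10918 with an endothelin. Markers of astrocytes and Mueller glia summed to between 9315 and 14299 untreated and between 12923 and 26837 with an endothelin, and those of proliferating cells to between 895 and 1483 and between 1083 and 5527. With the 3 endothelins averaged, 4 of 5, 2 of 4 and 2 of 5 tested markers of these lists passed limma's test, all higher than untreated. Of all probe sets tested, 3.54% passed as higher. In the astrocyte and Mueller glia list those 2 were Vim and Gja1, which made up most of its sum. Gfap, Aqp4, Rlbp1 and S100b of that list were below the filter. Not every list rose: of 2 tested endothelial markers 1 passed as lower, Kdr at -0.58 ± 0.14 (adjusted p = 0.0304), beside 1.35% of all probe sets. Of the tested markers of microglia 0 of 5 passed, and of amacrine and bipolar cells 0 of 3.

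Of the 92 genes, 86 passed the filter and were tested, including every gene of complexes I, II, III and V. The 6 below it were Cox6c-ps1 and 5 complex IV genes. Those 5 are the variant subunits Cox4i2, Cox6a2, Cox7b2 and Cox8b, and Ndufa4l2. Cox6a2 and Cox8b are the heart and muscle forms of subunits whose broadly expressed forms are Cox6a1 and Cox8a. The signal of Cox8b lay between 1.14 and 7.62, that of Cox6a2 between 12.8 and 73.9, and that of Cox4i2 between 4.91 and 97.7. Cox7b2 lay between 26.6 and 56.1, and Ndufa4l2 reached at most 87.2. The pseudogene Cox6c-ps1, at 82.3 to 212, was the nearest to the filter. Probe sets differ in how brightly they hybridise, so these levels are not set against those of the partner isoforms.

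Promoter sequence shows a feature that the symbol rule did not use. RefSeq promoters of the GRCr8 build, from 250 bases before to 50 bases after the gene's start, were found for 83 of the 92 genes. They were searched on both strands for letters associated with regulators of respiratory genes, and a match is a match of letters only. The ETS letters CCGGAAG, recognised by the nuclear respiratory factor GABP (NRF-2), stood in 25 of the 83 promoters (30.1%), in 19.1% of promoters of all tested genes and in 9.22% of all 27457 promoters. The letters of the palindromic NRF1 (nuclear respiratory factor 1) site stood in 5 (6.02%, against 2.13% and 0.932%). The long form of the YY1 letters stood in 9 (10.8%, against 2.17% and 0.798%). Their core ATGGCGGC, which every match of the long form contains, stood in 13 (15.7%, against 6.49% and 2.76%). Most matches of the core lay just after the gene's start on its own strand, from base 3 in Uqcrc1 to base 30 in Ndufa2. The exceptions lay before the start, in Ndufs1 (-32, opposite strand) and Sdhaf2 (-176). By complex, the core stood in 10 of 38 promoters of complex I, 2 of 8 of complex II, 1 of 6 of complex III, 0 of 16 of complex IV and 0 of 15 of complex V. The estrogen-related receptor letters TCAAGGTCA stood in 2 (2.41%, against 0.228% and 0.412%). The ETS letters stood in 9 of 38 promoters of complex I, 5 of 8 of complex II and 3 of 6 of complex III. They stood in 3 of 16 of complex IV and 5 of 15 of complex V. Stretches around the matches are given for 5 genes chosen among those with a match, from the gene's own strand, with the matched letters in capitals. Cox4i1, Cox8a and Cox5b are the 3 complex IV genes with the ETS letters. On the deposited scale they differed between replicate numbers, as did all 14 tested genes of that complex (12 of 14 after quantile normalization). A link to the letters was not tested. Atp5me is the complex V gene with the largest difference from untreated, and the complex I gene Ndufs4 stood apart in replicate 2. The matches of Cox4i1 and Cox8a are to the opposite strand, and Cox4i1 holds a second copy at the end of its stretch.
Atp5me, NRF1, chr14:1464759-1464818, plus strand: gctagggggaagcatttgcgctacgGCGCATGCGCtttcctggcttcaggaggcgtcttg
Cox4i1, ETS, chr19:65630361-65630412, plus strand: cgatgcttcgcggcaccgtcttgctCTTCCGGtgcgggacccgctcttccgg
Cox8a, ETS, chr1:213833649-213833705, minus strand: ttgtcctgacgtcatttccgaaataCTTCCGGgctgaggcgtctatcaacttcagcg
Cox5b, ETS, chr9:46417798-46417854, plus strand: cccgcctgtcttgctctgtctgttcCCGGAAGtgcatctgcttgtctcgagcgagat
Ndufs4, YY1, chr2:47794885-47794932, minus strand: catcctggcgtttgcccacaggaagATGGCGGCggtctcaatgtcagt

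The comparison of each endothelin with untreated asked whether respiratory chain genes respond within 24 h. None of the 86 passed the threshold, and their levels lay close to untreated throughout the 5 complexes. With ET-1 the log2 change had a median of -0.02 over the 86 genes (range -0.40 to 0.26) beside -0.01 over all 9425 tested genes. With ET-2 the median was -0.01 (range -0.39 to 0.30) beside -0.02, and with ET-3 it was 0.00 (range -0.43 to 0.20) beside -0.01. By limma with a block for replicate number and Benjamini-Hochberg adjustment (threshold 0.05), 0 of 86 passed with ET-1, against 1.73% of all 15521 probe sets tested. The count was 0 against 1.6% with ET-2 and 0 against 2.64% with ET-3. Averaged over the 3 endothelins it was 0 against 4.88%, where 549 probe sets were higher and 209 lower. At an unadjusted p under 0.05, 1, 6 and 4 of the 86 stood out with ET-1, ET-2 and ET-3, and 3 with the average. The background shares at that level were 15.5%, 16.3%, 17.8% and 21.8%. Without the block the limma fit called 0 of the 15521 probe sets in any of these comparisons. At an unadjusted p under 0.05 it then had 0, 0, 1 and 1 of the 86, beside backgrounds of 1.53%, 1.44%, 1.91% and 2.56%.

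The intervals show how large a change these arrays leave room for. In each comparison with untreated, the 95% interval of the log2 change lay within a 1.5-fold difference either way for 84 of the 86 genes and within 2-fold for all 86. The exceptions at 1.5-fold were Atp5me and Cox5a. The median half-width of the interval was 0.13 with a single endothelin and 0.10 with the average of the 3, beside 0.21 and 0.18 over all tested genes. Without the block the interval lay within 1.5-fold for between 79 and 81 of the 86.

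**Figure D1:**
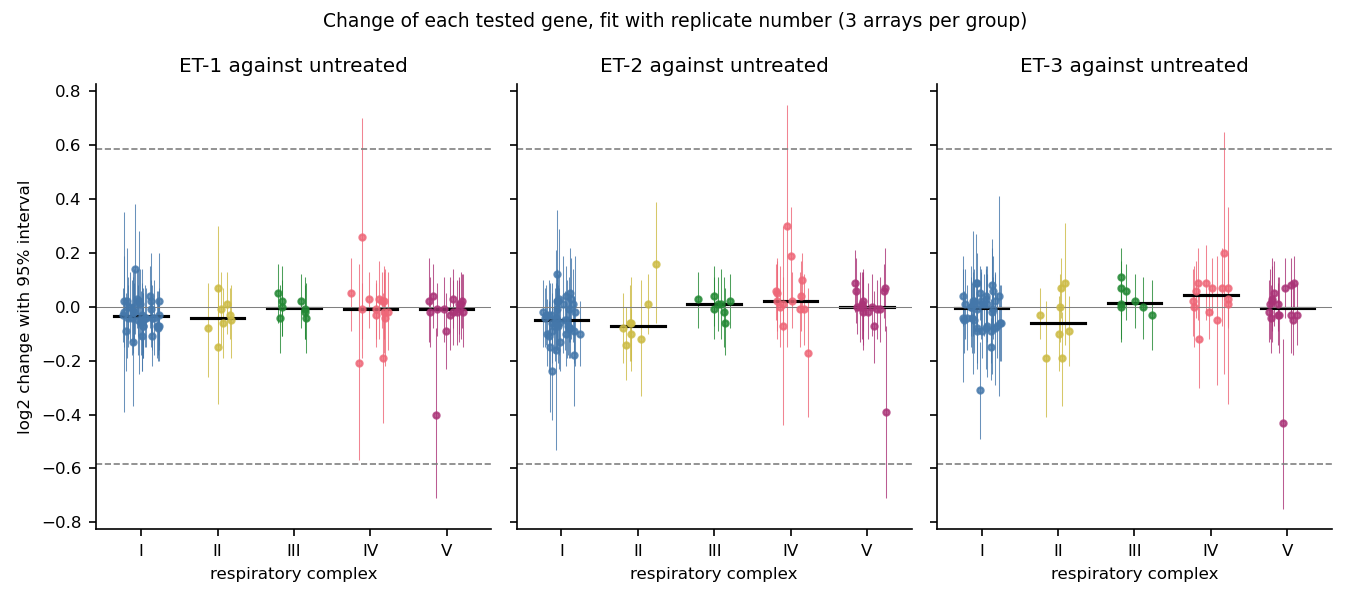
Log2 change of each of the 86 tested genes (points, with 95% intervals from the fit with replicate number, 3 arrays per group) in ET-1, ET-2 and ET-3 against untreated, by respiratory complex; the black bars are the medians of each complex and the dashed lines a 1.5-fold difference either way. The complex medians lie between -0.07 and 0.04, and the lowest point in each panel is Atp5me of complex V, at -0.40, -0.39 and -0.43.

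The plot of changes by complex shows the points of every complex spread around 0 under each peptide. Complex II had the lowest medians, at -0.04, -0.07 and -0.06 with ET-1, ET-2 and ET-3. Complex I stood at -0.03, -0.05 and -0.00. Complex III stood at -0.00, 0.01 and 0.02, complex IV at -0.01, 0.02 and 0.04, and complex V at -0.01, -0.00 and -0.01. In every complex these differences varied more between replicate numbers than the medians varied between complexes. In complex V, ET-3 minus untreated had a median of 0.08 among the arrays numbered 1, -0.15 among those numbered 2 and 0.07 among those numbered 3. In complex I the same 3 medians were 0.04, -0.10 and 0.01, and in complex IV 0.08, -0.08 and 0.12. Over all 86 genes the untreated array numbered 2 was the highest of the 12, with a median deviation of 0.129 from the genes' own means.

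In complex I, the core subunits carry the flavin and iron-sulfur clusters along which electrons pass. Ndufs1, which holds several of these clusters, read 2549, 2676 and 2822 untreated in replicates 1, 2 and 3. It read 2403, 2515 and 2884 with ET-1, 2398, 2579 and 2926 with ET-2, and 2486, 2427 and 2639 with ET-3, so that all groups overlapped. The average change was -0.06 ± 0.05 (SE, n = 3 arrays per group; adjusted p = 0.501). Ndufv1, which binds NADH, averaged 0.00 ± 0.05 (interval -0.10 to 0.10, adjusted p = 0.985). For Ndufs3, Ndufs7 and Ndufs8, the averages were -0.08 ± 0.05, -0.08 ± 0.04 and 0.00 ± 0.06, with adjusted p = 0.417, 0.322 and 0.983. Ndufv2, an iron-sulfur subunit beside Ndufv1, was lower than untreated in 9 of 9 comparisons within a replicate number, at -0.01 to -0.16. Its average was -0.08 ± 0.04 (adjusted p = 0.249).

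Among the accessory subunits of complex I, Ndufa3 was the other gene lower in 9 of 9 such comparisons, as were 8.05% of all tested probe sets. Higher in 9 of 9 were 0 of the 86 genes and 5.59% of all. It read 5040.0, 5326 and 5466 untreated, 4773, 4640 and 5264 with ET-1, 4959, 4592 and 4936 with ET-2, and 4773, 4416 and 5067 with ET-3. The 3 untreated signals overlap the treated ones across replicate numbers, since the ET-1 signal of replicate 3 exceeds the untreated one of replicate 1. The average change was -0.13 ± 0.04 (adjusted p = 0.103), and it passed after quantile normalization (-0.15, adjusted p = 0.036) and median centring (-0.19, adjusted p = 0.0491).

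Ndufa5, another accessory subunit, differed most with ET-3. The untreated signals were 2992, 2365 and 2495, those with ET-1 3370, 2295 and 2382, those with ET-2 2920, 2102 and 1739, and those with ET-3 2475, 2065 and 1803. The low values were those of ET-2 and ET-3 in replicate 3, and the groups overlapped. The change was -0.31 ± 0.08 with ET-3 (adjusted p = 0.07), -0.24 ± 0.08 with ET-2 (adjusted p = 0.179) and 0.02 ± 0.08 with ET-1 (adjusted p = 0.936). The ET-2 value passed after median centring (-0.34, adjusted p = 0.0483). Ndufab1, the mitochondrial acyl carrier protein that is also a subunit, averaged -0.06 ± 0.05 (adjusted p = 0.51). The 6 complex I assembly factors, which help to build the complex and are not part of it, had medians of 0.02, -0.00 and 0.03 with ET-1, ET-2 and ET-3.

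Complex II is succinate dehydrogenase, the enzyme shared with the tricarboxylic acid cycle. Sdha, its flavoprotein, averaged -0.05 ± 0.05 and Sdhb, its iron-sulfur subunit, -0.05 ± 0.04, with adjusted p = 0.599 and 0.428. Sdhb read 4721, 5147 and 4512 untreated and 4460, 4682 and 4225 with ET-2, lower under each number but overlapping across them. That change was -0.10 ± 0.04 (adjusted p = 0.27), and it passed after median centring (-0.20, adjusted p = 0.0479). The membrane anchors Sdhc and Sdhd averaged -0.09 ± 0.05 and 0.03 ± 0.04, with adjusted p = 0.302 and 0.703. Sdhaf3, an assembly factor, had the smallest unadjusted p of the complex with the average (-0.15 ± 0.08, adjusted p = 0.292).

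In complex III, Uqcrc1, a core protein that faces the matrix, was the gene with the smallest unadjusted p. It read 4984, 5560 and 5266 untreated and 5514, 5930 and 5597 with ET-3, higher under each number. The ET-3 change was 0.11 ± 0.05 (adjusted p = 0.282) and the average 0.07 ± 0.04 (adjusted p = 0.376). Its partner Uqcrc2 averaged -0.00 ± 0.04 (interval -0.10 to 0.09). Uqcrfs1, the Rieske iron-sulfur protein, averaged -0.03 ± 0.05, and Cyc1, cytochrome c1, -0.03 ± 0.05 (adjusted p = 0.719 and 0.769).

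Complex IV is cytochrome c oxidase, and its nuclear subunits surround the catalytic core that mitochondrial DNA encodes. Cox4i1, the broadly expressed form of subunit 4, averaged -0.01 ± 0.06 (interval -0.13 to 0.11, adjusted p = 0.952), and Cox5b -0.01 ± 0.05 (adjusted p = 0.951). Cox6a1 had the smallest unadjusted p of the complex (0.07 ± 0.04, adjusted p = 0.37). Cox5a, whose probe set was dim, read 217, 187 and 489 untreated. With ET-1 it read 182, 355 and 527, with ET-2 196, 371 and 513, and with ET-3 229, 323 and 406. In replicate 2 all 3 endothelin arrays stood above untreated, and in the others the signs were mixed. The average was 0.25 ± 0.17, with an interval from -0.11 to 0.62 (adjusted p = 0.413).

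The remaining complex IV genes showed the same small differences. Cox17, a copper chaperone needed to assemble the complex, read 1496, 1493 and 1737 untreated, 1418, 1983 and 2036 with ET-2 and 1341, 1449 and 1542 with ET-3. Its change was 0.19 ± 0.08 with ET-2 and -0.12 ± 0.08 with ET-3 (adjusted p = 0.282 and 0.455). For the isoform genes above the filter the averages were -0.01 ± 0.04 for Cox6b1, -0.09 ± 0.14 for Cox6b2, a form known from testis, and 0.05 ± 0.04 for Cox8a. They were -0.14 ± 0.09 for Cox7a1, known from heart and muscle, and 0.01 ± 0.04 for Cox7a2l, which joins complexes III and IV into supercomplexes. Ndufa4, once assigned to complex I and now counted in complex IV, averaged 0.05 ± 0.05. The adjusted p of these 6 ran from 0.402 to 0.937.

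In the ATP synthase, Atp5me, the small membrane subunit e that takes part in pairing the enzyme into dimers, had the largest difference from untreated of all 86 genes. It read 3176, 4323 and 4095 untreated. It read 3366, 2211 and 3322 with ET-1, 3128, 2483 and 3222 with ET-2, and 2426, 2819 and 3331 with ET-3. The untreated arrays numbered 2 and 3 were above every treated array, while the untreated array numbered 1 lay among them. The average change was -0.41 ± 0.12 (interval -0.67 to -0.15, adjusted p = 0.0728), or -0.40 ± 0.15, -0.39 ± 0.15 and -0.43 ± 0.15 with ET-1, ET-2 and ET-3 (adjusted p = 0.224, 0.212 and 0.144). The call turned on single arrays. The average passed without that replicate (-0.55, adjusted p = 0.0213), without its untreated array (-0.55, adjusted p = 0.0448), without its ET-1 array (-0.46, adjusted p = 0.0332) and after median centring (-0.46, adjusted p = 0.0405). Without replicate 2, or without its untreated array, the average was -0.21 (adjusted p = 0.293 and 0.337), and over all alternatives with the block its adjusted p ran from 0.0213 to 0.337. A second probe set of Atp5me, at 43.3 to 116, was below the filter.

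The other ATP synthase genes lay near 0. The catalytic beta subunit Atp5f1b averaged 0.04 ± 0.06 and its partner alpha, Atp5f1a, 0.01 ± 0.05 (adjusted p = 0.754 and 0.959). The stalk subunits gamma, delta and epsilon (Atp5f1c, Atp5f1d and Atp5f1e) averaged 0.04 ± 0.04, -0.04 ± 0.05 and 0.02 ± 0.04. Atp5mc3, 1 of the genes for the c subunit whose ring turns in the membrane, averaged 0.05 ± 0.04. Atp5if1, the inhibitor that stops the enzyme from running backwards, averaged 0.01 ± 0.04 (interval -0.07 to 0.09, adjusted p = 0.936).

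**Figure D2:**
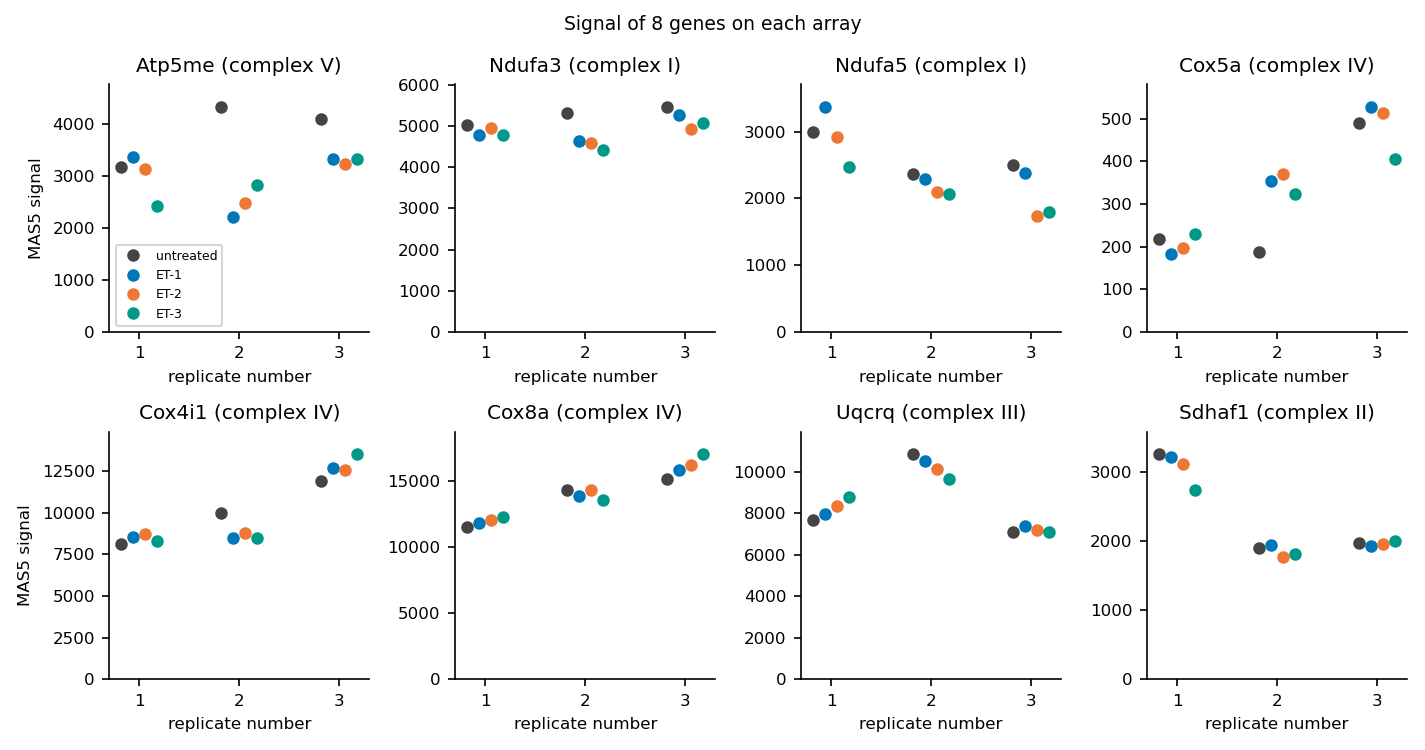
MAS5 signal (linear axis from 0) of 8 genes on each of the 12 arrays, by replicate number, with 1 point per array coloured by group. The upper row shows Atp5me, Ndufa3, Ndufa5 and Cox5a, chosen for their values against untreated, though none passed the threshold in the fit with the block. Atp5me read 4323 untreated and 2211 with ET-1 in replicate 2. The lower row shows genes that differed between replicate numbers, such as Cox4i1, at 8111 to 10005 in replicates 1 and 2 and 11902 to 13534 in replicate 3.

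The endothelins were compared with each other at the same dose and time, in 3 pairs. None of the 86 genes passed in any pair, and neither did any other probe set (background 0.0%). At an unadjusted p under 0.05 limma had 2 of the 86 in each pair, beside 3.7%, 2.24% and 3.76% of all probe sets for ET-2 against ET-1, ET-3 against ET-1 and ET-3 against ET-2. The 95% interval lay within 1.5-fold for all 86 genes in each pair. Ndufa5 differed by -0.26 ± 0.08 between ET-2 and ET-1 and by -0.33 ± 0.08 between ET-3 and ET-1, and Cox17 differed by -0.31 ± 0.08 between ET-3 and ET-2 (adjusted p = 1.0, 1.0 and 0.999). The 3 peptides share the untreated arrays, so their similar values against untreated are not independent.

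The replicate number separated the arrays far more than the treatment did, in these genes as in the rest of the array. Across the 86 genes the SD between the 3 replicate means had a median of 0.106 on the log2 scale, the SD between the 4 group means 0.038 and the residual SD 0.07. The replicate spread was the larger for 79 of the 86 (91.9%) and for 87.2% of all tested genes, where the same SDs were 0.191, 0.074 and 0.116. By limma's F test over replicate number, 60 of the 86 (69.8%) passed, beside 72.9% of all probe sets. By complex this was 25 of 40 in complex I, 3 of 8 in complex II, 6 of 8 in complex III, 14 of 14 in complex IV and 12 of 16 in complex V. These counts depend in part on the scaling. After quantile normalization they were 25, 3, 8, 12 and 10 for complexes I to V, and 58 of the 86 (67.4%) beside 72.2% of all tested genes. As the 4 arrays of a number may share cells, the test describes these 3 numbers only.

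**Figure D3:**
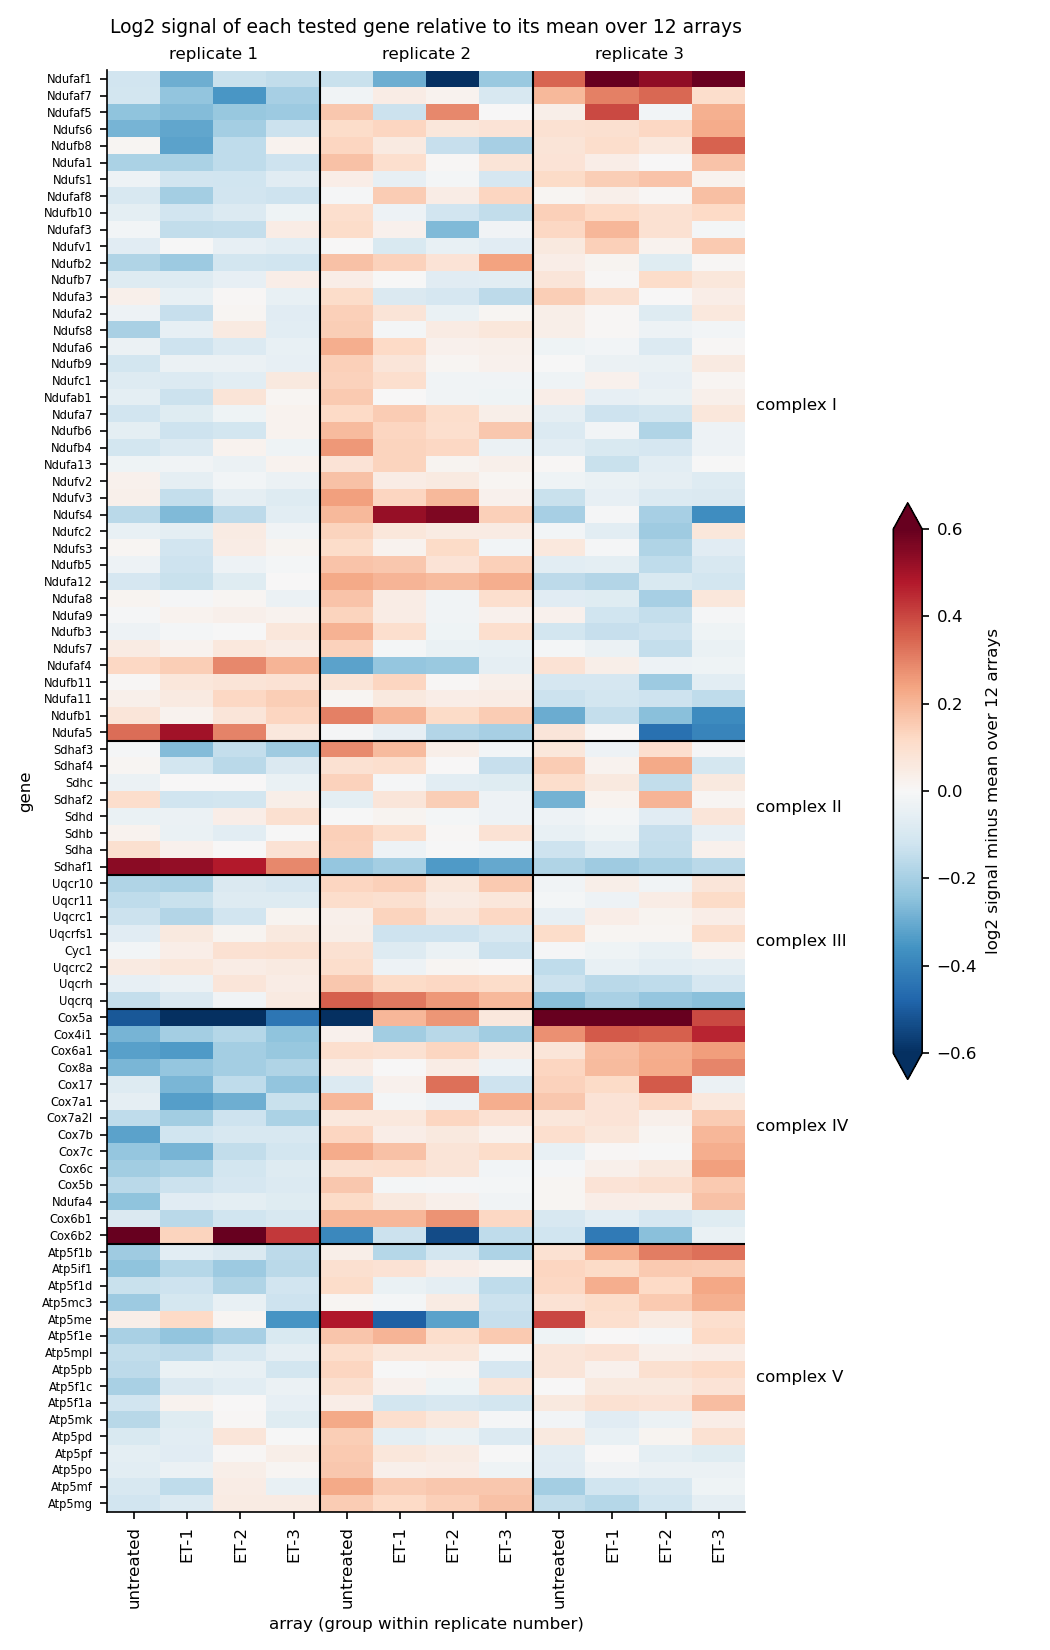
Log2 signal of each of the 86 tested genes (rows, by complex) on each of the 12 arrays (columns, by replicate number and group), as the difference from the gene's own mean over the 12 arrays, with colours saturating at 0.6. Columns of the same replicate number look alike, and most complex IV rows are blue (below the mean) in replicate 1.

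The heat map of the 86 genes shows the replicate numbers as 3 blocks. Replicate 2 against replicate 1 had 41 genes higher and 4 lower, beside 26.8% and 18.3% of all probe sets. Replicate 3 against replicate 1 had 35 higher and 11 lower (32.2% and 26.9%), and replicate 3 against replicate 2 had 15 higher and 23 lower (23.8% and 27.7%). Which way the last pairs point depends on the scaling, since the arrays do not share a median. Centring each array on its median moved the median of all tested genes to -0.31 for replicate 3 against 1 and to -0.35 for replicate 3 against 2, and the counts became 5 higher and 54 lower (5.81% and 62.8%, beside 9.44% and 61.7% of all tested genes), and 2 higher and 69 lower (2.33% and 80.2%, beside 6.14% and 65.7%). After quantile normalization replicate 3 against 1 had 35 higher and 12 lower, beside 26.6% and 31.2% of all tested genes, and replicate 3 against 2 had 16 higher and 18 lower (18.6% and 20.9%, beside 17.3% and 32.1%). Replicate 2 against 1 then had 30 higher and 8 lower (34.9% and 9.3%, beside 28.1% and 18.1%). The medians of the complexes are therefore given below relative to the median of all tested genes as well. Differences of single genes and of markers are on the deposited scale, where the median of all tested genes was 0.06, -0.01 and -0.06 for replicate 2 against 1, 3 against 1 and 3 against 2.

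On the deposited scale complex IV stood lowest in replicate 1, which with median centring holds against replicate 2 but not against replicate 3. Of its 14 tested genes, 12 were higher and 1 lower in replicate 2 than in replicate 1, and 12 were higher and 1 lower in replicate 3 than in replicate 1. The medians were 0.23 and 0.25, or 0.17 and 0.26 above the median of all tested genes. Complex V had medians of 0.10 and 0.16 (0.05 and 0.17 above all genes), complex III of 0.15 and -0.01 (0.10 and 0.00), complex I of 0.09 and 0.01 (0.03 and 0.02) and complex II of 0.04 and -0.01 (-0.02 and 0.00). After quantile normalization the complex IV medians were 0.14 and 0.14 (0.08 and 0.16 above all genes), with 8 genes higher and 1 lower in each pair. Relative to all genes, complexes I, II, III and V then stood at -0.01, -0.05, -0.01 and -0.04 in the first pair. In the second pair they stood at 0.09, 0.08, 0.02 and 0.08, so the order of these 4 differed from that on the deposited scale. With median centring the complex IV medians were 0.22 and -0.05, the second below 0 but still 0.26 above all genes. Replicate 3 against replicate 2 had a complex IV median of 0.04 on the deposited scale, -0.00 after quantile normalization and -0.24 with median centring.

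**Figure D4:**
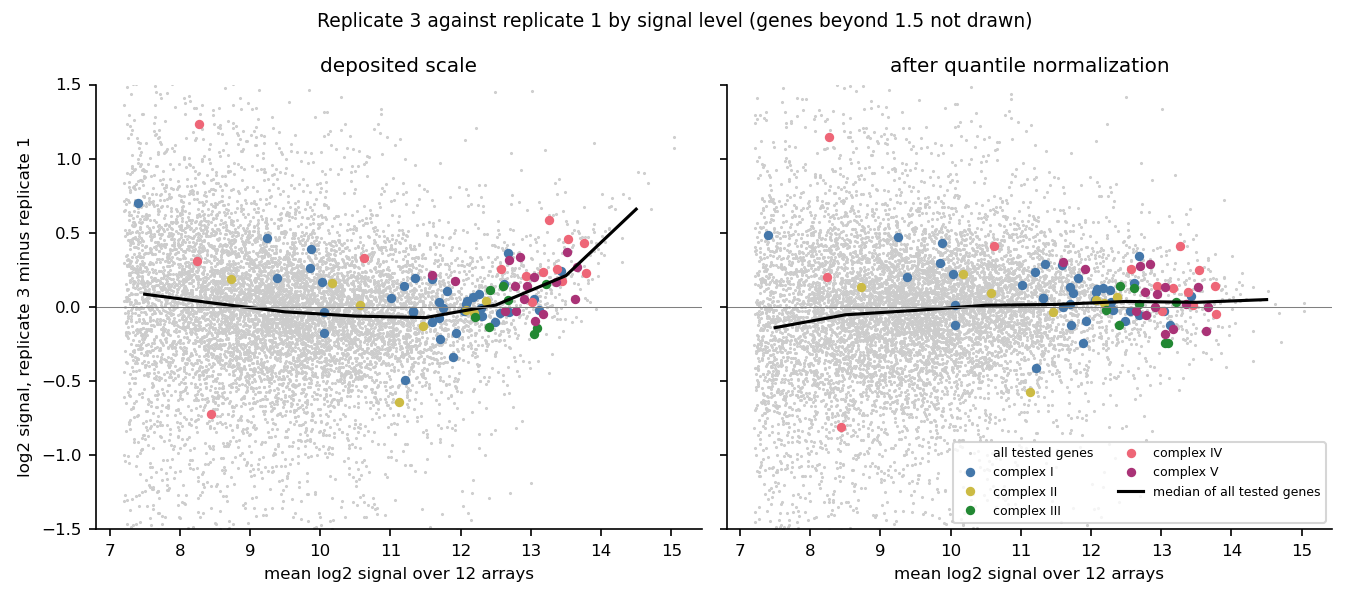
Difference in log2 signal between replicates 3 and 1 against the mean log2 signal, for all tested genes (grey, with their running median as a black line) and the tested genes of each complex (coloured), on the deposited scale and after quantile normalization. Over the 22 tested genes with a mean log2 signal above 14, the median difference is 0.67 on the deposited scale and 0.04 after quantile normalization. These 2 values are not points of the line, which is drawn in narrower steps.

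Signal level moved with this difference. The plot of the replicate difference by signal shows that the brightest genes of the whole array were higher in replicate 3 than in replicate 1. Over the 190 tested genes with a mean log2 signal between 13 and 14, the median difference was 0.21, and over the 21 respiratory genes among them it was 0.18. Above 14 it was 0.67 over 22 genes, none of them in the set. After quantile normalization the values between 13 and 14 were 0.03 and 0.01. The median of the mean log2 signal was 13.1 for complex IV, 12.9 for complex V, 12.6 for complex III, 11.8 for complex I and 11.3 for complex II, and 9.5 for all tested genes. The 2 subunits of complex IV from mitochondrial DNA on the array, COX1 and COX2, which are not in the set, were 1.15 and 1.07 higher in replicate 3 than in replicate 1. After quantile normalization those differences were 0.03 and -0.03, and their average changes with endothelin on the deposited scale were 0.18 and 0.14 (adjusted p = 0.198 and 0.272). The part of signal level in the complex IV difference was not tested.

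Cell markers moved with the replicate number too. Of 13 RGC markers, 11 were higher and 1 lower in replicate 2 than in replicate 1, and 11 were higher and 0 lower in replicate 3 than in replicate 1, with medians of 0.33 and 0.45. Of 7 tested fibroblast markers 6 and 7 were lower in these pairs, with medians of -2.41 and -2.81. In such bulk samples fewer cells of a type and less RNA per cell cannot be told apart, and the part of cell makeup in the respiratory genes' differences was not tested.

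Single complex IV genes differed in how they followed these medians. Cox4i1 read 8111, 8531, 8753 and 8333 in replicate 1 (untreated, ET-1, ET-2 and ET-3), 10005, 8515, 8771 and 8510.0 in replicate 2, and 11902, 12685, 12613 and 13534 in replicate 3. The replicate 3 arrays were above all others, by 0.59 ± 0.06 over replicate 1 (adjusted p = 3.09e-06) and 0.50 ± 0.06 over replicate 2. Its replicates 2 and 1 overlapped (0.08 ± 0.06, adjusted p = 0.274), and it was the gene of the 14 that did not pass in that pair. Cox8a read 11491 to 12271 in replicate 1, 13598 to 14353 in replicate 2 and 15185 to 17040 in replicate 3, with no overlap between the numbers. Its differences were 0.24 ± 0.04 for replicate 2 and 0.43 ± 0.04 for replicate 3 over replicate 1 (adjusted p = 0.000691 and 2.21e-06). Its difference between replicates 3 and 2, 0.19, became -0.09 with median centring. Cox6a1 read 9365 to 10295 in replicate 1, 12270 to 12949 in replicate 2 and 12475 to 14120 in replicate 3, where the last ranges overlap. Cox5b was 0.15 ± 0.05 and 0.20 ± 0.05 above replicate 1 in replicates 2 and 3 (adjusted p = 0.0287 and 0.00375). With median centring these became 0.14 and -0.09 (adjusted p = 0.0884 and 0.191).

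Cox5a had the widest range between replicate means in complex IV, at 1.23 ± 0.18 between replicates 3 and 1 (adjusted p = 6.94e-05). Cox6b2 ran the other way from the rest of the complex. It read 568, 381, 596 and 466 in replicate 1, 265, 317, 240 and 313 in replicate 2 and 320, 259, 292 and 337 in replicate 3. It was lower in replicates 2 and 3 than in replicate 1, at differences of -0.81 ± 0.15 and -0.72 ± 0.15 (adjusted p = 0.000739 and 0.000956). Its broadly expressed partner Cox6b1 was higher in replicate 2 than in both others, by 0.31 ± 0.04 over replicate 1 and, with median centring, by 0.30.

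In the other complexes, the genes with the widest replicate ranges did not share an order. Sdhaf1, which helps place iron-sulfur clusters in Sdhb, read 3258, 3221, 3112 and 2734 in replicate 1 and 1767 to 2002 in the other 8 arrays. It was lower there than in replicate 1, at -0.73 ± 0.06 in replicate 2 and -0.64 ± 0.06 in replicate 3 (adjusted p = 8.23e-07 and 6.87e-07), while Sdha and Sdhb, subunits of the complex it serves, lay between -0.13 and 0.11. Uqcrq, a small subunit of complex III, was highest in replicate 2, at 9684 to 10862, beside 7675 to 8794 in replicate 1 and 7108 to 7407 in replicate 3. The difference between replicates 3 and 2 was -0.51 ± 0.05 (adjusted p = 4.77e-06). Atp5f1b read 12504 to 14755 in replicate 3, 10114 to 11207 in replicate 1 and 10298 to 11999 in replicate 2, and replicate 3 stood 0.37 ± 0.06 above replicate 1 (adjusted p = 0.000272), or 0.07 with median centring (adjusted p = 0.39).

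Complex I had its widest ranges in an assembly factor and in accessory subunits. Ndufaf1, an assembly factor whose signal lay near the filter, read 138 to 156 in replicate 1, 99.3 to 154 in replicate 2 and 215 to 262 in replicate 3. Ndufs4, an accessory subunit mutated in Leigh syndrome, read 953, 887, 958 and 1021 in replicate 1, 1220, 1533, 1572 and 1180 in replicate 2 and 930.2, 1063, 929 and 824 in replicate 3. All arrays numbered 2 were above the rest, and within that number the ET-1 and ET-2 arrays were the highest. The difference was 0.52 ± 0.09 between replicates 2 and 1 (adjusted p = 0.000816), while the average endothelin change was 0.07 ± 0.09 (adjusted p = 0.669). Ndufa5 was lower in replicates 2 and 3 than in replicate 1, at -0.41 ± 0.07 and -0.49 ± 0.07 (adjusted p = 0.000678 and 7.62e-05). Among the core subunits, Ndufs1 was 0.20 ± 0.05 and Ndufv1 0.14 ± 0.05 higher in replicate 3 than in replicate 1 (adjusted p = 0.00338 and 0.0252). With median centring both turned below 0, to -0.10 and -0.16. Quantile normalization did not turn the core subunits as a class. The 6 then ran from -0.00 to 0.29 in that pair, with 3 higher and 0 lower (26.6% and 31.2% of all tested genes). On the deposited scale Ndufs3, Ndufs7, Ndufs8 and Ndufv2 did not pass in that pair.

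More than 1 probe set was on the array for 10 genes, and of the 11 others 5 passed the filter. None of the 5 passed in a comparison with untreated. Between replicate numbers the widest gaps to the probe set used here were in Uqcrc2 and Ndufv3. The other probe set of Uqcrc2 was 0.90 higher in replicate 3 than in replicate 1, where the one used stood at -0.13. That of Ndufv3 was 1.40 higher (adjusted p = 1.19e-07), where the one used was at -0.03.

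Neighbouring pathways were counted in the same way. With the 3 endothelins averaged, limma passed 0 of 17 tested genes of the tricarboxylic acid cycle and pyruvate dehydrogenase, 0 of 32 assembly factors outside the symbol rule, 0 of 24 regulators of mitochondrial biogenesis and 0 of 14 mitochondrial carriers and uncouplers. The background was 4.88% of all probe sets, and for lists of this size a count of 0 is near that share. The medians were -0.04, -0.04, 0.00 and -0.02, beside -0.02 over all tested genes. The closest in each were Idh3a, a subunit of the NAD-linked isocitrate dehydrogenase, at -0.17 ± 0.05 (adjusted p = 0.0923), Tmem242, an ATP synthase assembly factor, at -0.21 ± 0.06 (adjusted p = 0.0507), Prkaa2, a catalytic subunit of the energy sensor AMPK, at -0.34 ± 0.09 (adjusted p = 0.0514) and Ckmt1, mitochondrial creatine kinase, at -0.23 ± 0.07 (adjusted p = 0.0711).

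Of 21 tested glycolysis genes 3 rose and 0 fell, beside 3.54% and 1.35% of all probe sets, and the median was 0.01. Slc16a3, the lactate exporter MCT4, rose by 1.15 ± 0.24 (adjusted p = 0.0163). Pgam1, phosphoglycerate mutase, rose by 0.17 ± 0.04 and Pgk1, phosphoglycerate kinase, by 0.16 ± 0.04 (adjusted p = 0.0301 and 0.0431). Some genes of the marker lists rose in the same comparison. Gja1 rose by 1.03 ± 0.10 and Vim by 0.67 ± 0.05 (astrocytes and Mueller glia), and Pdgfrb by 1.02 ± 0.19 (pericytes). Ccna2 rose by 1.23 ± 0.22 and Mki67 by 0.99 ± 0.20 (proliferating cells), and these adjusted p ran from 4.02e-05 to 0.0164. Not every gene did: Slc1a3 stood at 0.08 ± 0.14 (adjusted p = 0.787), and Gfap, Aqp4, Rlbp1, S100b, Rgs5, Cspg4 and Des were below the filter. Ccna2 rose most in replicate 1, from 233 untreated to between 965 and 1021 with an endothelin. In the other replicates it read 71.0 to 108 untreated and 121 to 200 with an endothelin. Between replicate numbers Slc16a3 stood at -1.18 and -1.47 in replicates 2 and 3 relative to replicate 1. Replicate 1 also had the highest summed markers of fibroblasts (above) and of proliferating cells (1483 to 5527, beside 895 to 1307 in the others). The astrocyte and Mueller glia list summed to 14299 to 26837 there, beside 9315 to 14837 in the others, which overlap. Vim and Gja1 made up most of that sum. Gja1 read 4556 to 11276 in replicate 1 and 617 to 2505 in the others. Gfap, below the filter, read 64.3 to 87.0 in replicate 1 and 180 to 240 in the others. With the endothelins averaged, 0 of 7 tested fibroblast markers were higher and 1 was lower. The part of these cells in the glycolysis genes' changes was not tested. No gene of the 5 pathway lists, glycolysis and those of the paragraph before, passed with a single endothelin. Without the block none of them passed with the average. The marker lists are not part of that count, and Vim and Gja1 passed with each endothelin in the fit with the block.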

How the data were processed

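Gene expression was measured on 12 arrays, and the table the authors deposited holds 1 intensity per probe set and array, produced with MAS5 per the submitters' processing notes. No source used here gives its version or scaling. Of 31042 probe sets, 20826 had 1 gene symbol in the platform annotation, 436 several and 9780 none, and those with 1 were named. The log2 of each deposited value was used, without a pseudocount or renormalization. The 15521 probe sets (9425 genes) at or above the median mean log2 signal were tested with limma 3.58.1 in R 4.3.3: 4 group means with the replicate number as a block, eBayes with an intensity trend, two-sided p-values adjusted by Benjamini-Hochberg over all 15521. The script was tested on simulated data. For arrays, their number limits the precision.

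The replicate number was used as a block because arrays of different groups that share a number resembled each other. Their deviations from the group means correlated at 0.684 to 0.912 in all 18 pairs. In the 36 pairs with different numbers the correlations were -0.706 to -0.0555. Deviations from a group's own mean cancel within the group, so positive values in pairs sharing a number must be offset by negative values elsewhere. The negative range is therefore no separate reason for the block. The pairing rests on the values. The median residual SD was 0.25 without the block (8 residual degrees of freedom) and 0.127 with it (6).

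The set of genes, the gene lists and the block were chosen with earlier results of these data known. Named were the catalytic and core subunits, isoform pairs, genes past the threshold, per complex the gene with the smallest p with the endothelins averaged and the one with the widest range between replicate means, and up to 3 genes per list. Further genes (Ndufa5, Ndufs4, Cox17 and others with values near the threshold) were chosen after their values were seen. The alternatives were median centring, quantile normalization, a pseudocount of 16, no filter, no trend, no block, 2 groups alone, all probe sets of a gene, and leaving out each array or replicate number.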

Additional observations from a re-analysis of the deposited data

How the results depend on the processing

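The counts with each endothelin and with their average kept their size under most alternatives, and the exceptions each involved 1 or 2 genes. With ET-1, 0 to 1 genes passed when arrays or replicate numbers were left out (1 without replicate 1, Atp5me at -0.63, adjusted p = 0.0467). With ET-2, 2 passed after median centring (Ndufa5 and Sdhb). With the average, 2 passed after median centring and 1 after quantile normalization, and 0 to 1 when arrays were left out. Median centring shifted the median of all tested genes by up to 0.10 in the treatment comparisons: the median of the 86 genes moved to -0.112 with ET-2, to -0.074 for ET-2 against ET-1 and to 0.071 for ET-3 against ET-2, within 0.01 of that of all genes. The count by replicate number ran from 35 (without replicate 3, which leaves 2 numbers to compare) to 60 when arrays or numbers were left out, was 48 without the intensity trend and 76 with median centring.

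Without the replicate block the limma fit called 0 of the 86 in every comparison, as the fit with the block did, and the median half-width of the interval with ET-1 was 0.25 in place of 0.13.

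Between replicates 3 and 2, median centring reversed the difference of Cox8a to -0.09, of Cox6a1 to -0.19, of Sdhaf1 to -0.20, of the complex I subunit Ndufs6 to -0.25, of Cox5b to -0.23 and of Ndufs1 and Ndufv1 to -0.14 each. Between replicates 3 and 1 it reversed that of Cox5b to -0.09, of Cox6b1 to -0.27, of Ndufs1 to -0.10 and of Ndufv1 to -0.16. Quantile normalization reversed that of Atp5f1b between replicates 2 and 1 to -0.12. These follow the shift of all genes under median centring, and for Atp5f1b the cause was not tested. Cox5a, called between replicates 2 and 1 at 0.54, was not called without 1 of 5 arrays (0.42 to 0.49). No measure of signal over background was used. With the average, the standard errors of Cox5a (0.17), Ndufaf1 and Cox6b2 (0.14 each) and Atp5me (0.12) were the highest of the 86 genes.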
